A study of Mus musculus with 20 samples.

Results

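The chromatin regions described here held a called peak at day 3 and day 7 after myocardial infarction (MI) in cells sorted as cardiac fibroblasts. They had no called peak before injury or at week 4. Which of the sorted cells the peaks come from was not tested. Peaks from all 10 deposited ATAC-seq peak lists (chromosomes 1 to 19 and X) that shared at least 1 base were merged into 143246 regions. A merged region was kept if it held a peak in both day 3 lists and both day 7 lists and in none of the 2 uninjured and 2 week 4 lists, which left 4880 members, or 3.41% of all merged regions. Members were thus chosen by the presence or absence of peaks in 8 lists, and neither the RNA data nor the presence of a week 2 peak was used. Week 2 peaks were merged with the others, so they help to set the bounds of regions. Of the 58505 regions with a peak in all 4 day 3 and day 7 lists, members were 8.34%. The lists with the peaks were also the longest ones, with 105647 and 107774 peaks at day 3 and 93661 and 88250 peaks at day 7, against 63882 and 71878 in uninjured hearts and 69207 and 70123 at week 4. The week 2 lists held 77885 and 79654 peaks. A region without a called peak is not shown to be closed, and the part of list length in the number of members was not tested.

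The cells were sorted as eGFP-positive fibroblasts from mouse hearts with a MerCreMer recombinase switched on by tamoxifen (75 mg/kg/day for 5 days). The recombinase left a heritable eGFP mark in cells of the Tcf21 lineage. Resident cardiac fibroblasts express the transcription factor Tcf21, and the mark stays in their descendants whatever they express later. The groups were hearts 3 days, 7 days, 2 weeks and 4 weeks after MI and uninjured hearts, and the tamoxifen and the eGFP mark are common to all of them. Each time point had 2 ATAC-seq and 2 RNA-seq libraries, and whether replicates are separate or pooled animals is not labelled. The p-values therefore cover only the variation among these libraries, part of which may be technical. Wild-type cells without eGFP set the gate of the sort, and 10000 sorted cells went into each RNA library. ATAC-seq uses the Tn5 transposase to insert sequencing adapters into accessible DNA. RNA values are CPM, that is the deposited expected counts scaled by library size. Their totals were 16397211 to 21043997 per library. Reads of the 4 Y-linked genes Ddx3y, Eif2s3y, Kdm5d and Uty summed to 2137 and 1 at day 3, 5 and 4244 at day 7, 7875 and 7320 at week 2 and 0 and 6566 at week 4, against 2 and 10 in the uninjured libraries. Libraries therefore differed in Y-linked reads within and between groups, which are labelled by time only. The 10 markers of resident fibroblast identity, among them Pdgfra, Dcn and Col1a1, summed to 24970 and 40160 CPM at day 3, 45280 and 54130 CPM at day 7 and 33160 and 44460 CPM at week 2, against 64550 and 66210 CPM in the uninjured libraries and 66350 and 68650 CPM at week 4. Of the 10, 3 were higher and 5 lower at days 3 and 7 than in uninjured hearts and week 4 by edgeR at an adjusted p under 0.05. They were thus present in every library and lower in sum after injury until week 4, and the part of this in the peaks was not tested.

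Most accessible regions outside promoters are thought to be enhancers, stretches of DNA where transcription factors displace nucleosomes and act on genes at a distance. After MI, cardiac fibroblasts pass through an inflammatory and proliferative phase, become contractile myofibroblasts that lay down matrix, and later settle into the mature scar. Factors of the AP-1, TEAD and RUNX families are known to bind enhancers that open in activated fibroblasts, while PU.1 does so in macrophages and other myeloid cells.

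Most members lay away from gene starts, but the windows where a member covered a gene's start show the DNA itself and tie it to a named gene. RefSeq start windows, from 250 bases before to 50 bases after an annotated start in GRCm38.p6, were at hand for chromosomes that hold 4723 of the 4880 members. In all, 288 windows lay wholly inside a member. Shown here are 6 of them, from genes whose RNA was higher at days 3 and 7, chosen after the RNA values were seen to show windows with and without motif matches. Capitals mark AP-1 TGANTCA, RUNX TGTGGTT or PU.1/ETS GAGGAAG letters found on either strand. The windows are chr17:29360664-29360963 (plus strand) for Fgd2, chr15:78596797-78597096 (plus) for Cyth4, chr1:75263722-75264021 (minus) for Ptprn, chr14:103513091-103513390 (plus) for Scel, chr12:104235897-104236196 (plus) for Serpina3g and chr14:75130873-75131172 (plus) for Lcp1.
Fgd2: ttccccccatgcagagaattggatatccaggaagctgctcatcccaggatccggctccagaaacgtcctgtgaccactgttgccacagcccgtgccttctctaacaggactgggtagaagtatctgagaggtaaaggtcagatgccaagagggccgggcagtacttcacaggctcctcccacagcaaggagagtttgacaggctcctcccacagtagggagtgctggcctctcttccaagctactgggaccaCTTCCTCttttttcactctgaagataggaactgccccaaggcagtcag
Cyth4: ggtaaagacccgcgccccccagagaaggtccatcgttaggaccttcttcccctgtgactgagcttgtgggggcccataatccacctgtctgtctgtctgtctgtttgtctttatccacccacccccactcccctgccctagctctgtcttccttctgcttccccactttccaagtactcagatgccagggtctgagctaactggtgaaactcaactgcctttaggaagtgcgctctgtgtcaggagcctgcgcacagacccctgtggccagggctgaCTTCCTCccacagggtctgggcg
Ptprn: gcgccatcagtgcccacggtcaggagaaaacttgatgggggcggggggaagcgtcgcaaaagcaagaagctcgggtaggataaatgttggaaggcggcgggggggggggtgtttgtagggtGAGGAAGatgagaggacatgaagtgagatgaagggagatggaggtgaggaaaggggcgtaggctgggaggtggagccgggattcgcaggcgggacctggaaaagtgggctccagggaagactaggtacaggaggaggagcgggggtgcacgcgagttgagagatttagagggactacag
Scel: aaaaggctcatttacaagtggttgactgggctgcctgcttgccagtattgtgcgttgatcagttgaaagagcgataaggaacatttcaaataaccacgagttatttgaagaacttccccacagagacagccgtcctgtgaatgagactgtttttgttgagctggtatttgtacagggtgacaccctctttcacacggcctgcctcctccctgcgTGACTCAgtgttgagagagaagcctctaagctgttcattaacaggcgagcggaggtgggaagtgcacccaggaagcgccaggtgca
Serpina3g: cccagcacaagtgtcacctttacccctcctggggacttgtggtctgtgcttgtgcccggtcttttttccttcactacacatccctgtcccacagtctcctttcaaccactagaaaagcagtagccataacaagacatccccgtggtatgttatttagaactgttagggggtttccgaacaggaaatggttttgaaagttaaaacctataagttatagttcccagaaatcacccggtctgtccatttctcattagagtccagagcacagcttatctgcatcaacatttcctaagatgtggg
Lcp1: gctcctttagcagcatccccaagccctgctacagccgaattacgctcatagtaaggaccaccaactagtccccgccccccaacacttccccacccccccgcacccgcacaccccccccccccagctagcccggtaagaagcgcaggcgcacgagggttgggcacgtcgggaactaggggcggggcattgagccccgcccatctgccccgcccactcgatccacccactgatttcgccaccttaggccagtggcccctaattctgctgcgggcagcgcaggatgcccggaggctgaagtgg

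The Fgd2, Cyth4 and Ptprn windows shown each hold 1 PU.1/ETS match, the Scel window holds 1 AP-1 match, and the Serpina3g and Lcp1 windows hold none of these 3 motifs. A second Ptprn window, chr1:75264159-75264458 (minus), also holds none of them and is not shown. The 6 include every window of the higher genes with a marked match, so they overstate how common such matches are there. Over the 288 windows the AP-1 letters were present in 12.8%, against 7.81% of all 32851 start windows and 5.18% of the 15321 windows inside regions open in all 10 lists. For PU.1/ETS the shares were 20.1% of member windows, 13.1% of always open windows and 13.6% of all windows, and for the NF-kB letters GGGANTTCC they were 4.17%, 2.21% and 1.68%. In the same order, RUNX had 6.6%, 3.47% and 5.27%, TEAD (GGAATG) 13.5%, 12.4% and 14.7%, and the E-box CAGCTG, of the class bound by Tcf21, 21.9%, 15.8% and 16.3%. The E-box CATCTG had 17%, 11.5% and 17.2%, and AGATAA of the GATA factors 9.72%, 6.11% and 11.2%, so for these motifs the member share lay above the always open windows but not above all windows. The remaining motifs had 10.4%, 8.26% and 10.8% (C/EBP, TTGCNNAA), 3.47%, 2.98% and 3.44% (the IRF motif of interferon factors), 6.25%, 4.36% and 4.81% (STAT, TTCCNNGAA) and 1.39%, 1.23% and 1.63% (CArG box of SRF). Median GC content was 54.33% in member windows, 61.0% in windows inside always open regions and 52.67% in all windows, and its part in these shares was not tested. Both strands were searched, each motif was counted separately, so 2 motifs may share letters, and windows of 1 gene may overlap. Matches describe letters only, and they cover the few members at gene starts, not the distal ones.

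Members were mid-sized regions, with a median width of 1311 bases (quartiles 1028 and 1692, range 351 to 16715). As the choice of members used these peaks, their heights are given as a description. The median fold enrichment over local background, the peak height in the deposited lists, was 5.76 and 6.12 at day 3 and 4.29 and 3.97 at day 7. Ranked within its own list, the median member peak stood at percentiles 45.5 and 51.3 at day 3 and 35.0 and 33.2 at day 7. Member peaks were thus of ordinary height at day 3 and lower-ranking at day 7. In 2561 members (52.5%) both day 3 percentiles were above both day 7 percentiles, and in 397 (8.14%) the reverse held.

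**Figure D1:**
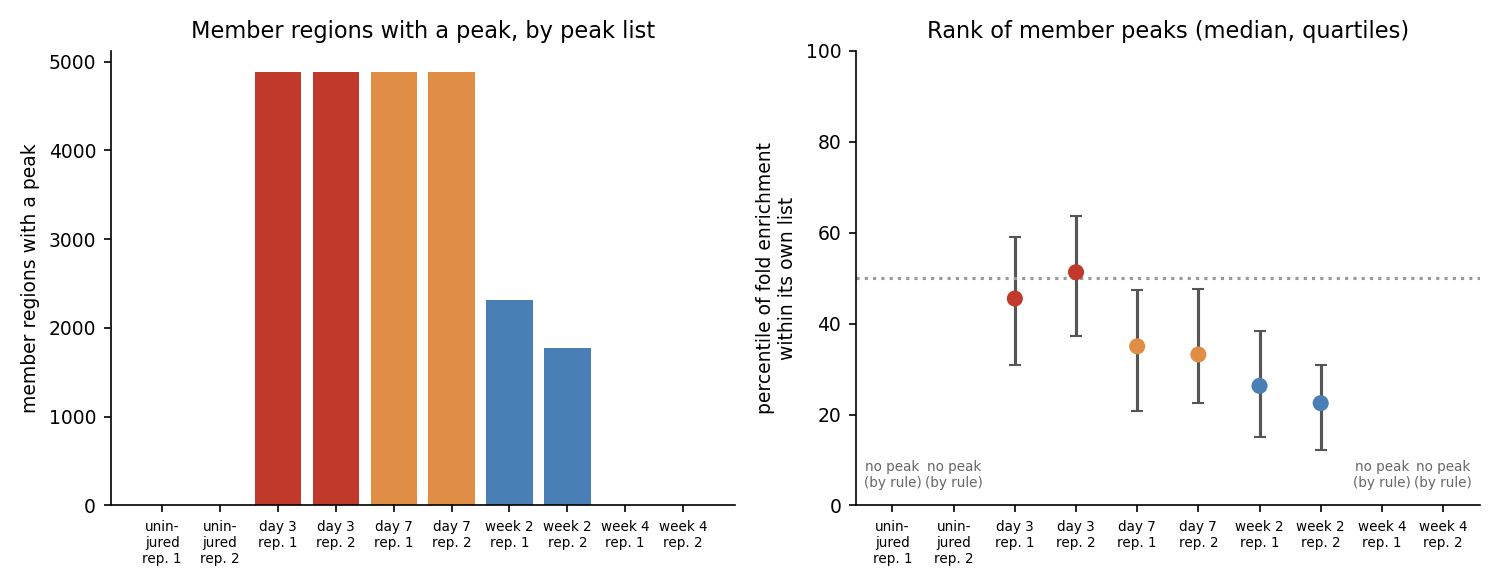
Left, the number of the 4880 members with a peak in each of the 10 ATAC-seq lists. Right, the percentile of the member peaks' fold enrichment within each list (points, medians; bars, quartiles; dotted line, the list's own middle), which was 45.5 and 51.3 at day 3, 35.0 and 33.2 at day 7 and 26.3 and 22.5 among the members that had a week 2 peak. By the rule no member has a peak in the uninjured and week 4 lists.

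The weakest of a member's 4 peaks had a median −log10 q of 3.77, and the lowest was 1.32. It was a day 7 peak in most members, in 1986 of replicate 1 and 2181 of replicate 2, and a day 3 peak in 502 and 211. Just outside the rule lay 6204 regions with 3 of the 4 peaks and none in the uninjured and week 4 lists, of which 3295 missed day 7 replicate 2, the shortest of the 4 lists, and 1865 missed day 7 replicate 1. A further 3428 regions had all 4 peaks and 1 peak in an uninjured or week 4 list, with a median −log10 q of 3.43 to 4.79 for that peak. Without day 7 replicate 2 the rule kept 8175 regions.

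The tallest member was unlike the others. It was a region of 351 bases inside Camk1d (chr2:5379034-5379384, mm10), which encodes a calcium- and calmodulin-dependent kinase, with fold enrichments of 52.1 and 54.9 at day 3, 60.1 and 67.5 at day 7 and 65.7 and 66.7 at week 2. Its 6 peaks had starts within 1 base and ends within 4 bases of each other, and the nearest peak of an uninjured or week 4 list was 23981 to 41377 bases away. It was the single member with a fold enrichment of 20 or more in all 4 lists, and the next member reached 12.2 by its lowest value. This was a sharply bounded signal in the 6 libraries of days 3 and 7 and week 2, and whether it comes from chromatin of this locus was not tested.

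Behind it in rank, by the lowest percentile over the 4 lists, came 5 broader distal regions, all of which still had peaks in both week 2 lists. A region 18802 bases from the nearest gene start and nearest to Gclc, a subunit of the enzyme that makes glutathione, had fold enrichments of 25.2 and 28.6 at day 3, 12.9 and 11.9 at day 7 and 8.63 and 4.52 at week 2 (chr9:77827777-77829687). A region 66689 bases from Slit3, a secreted guidance protein, had 19.7 and 15.5 at day 3, 12.9 and 11.9 at day 7 and 6.97 and 4.78 at week 2 (chr11:35052469-35054535). Near Ktn1, which encodes the membrane protein kinectin, the values were 20.9 and 19.4, 13.4 and 10.7, and 7.97 and 5.58 at the same times (chr14:47633533-47635162). All 3 regions were tallest at day 3 and lowest at week 2 in each replicate. The other two, on chromosomes 19 and 6, were over 100 kb from any gene of the count table and were linked to none (chr19:15456768-15459553 and chr6:117464560-117467335).

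Members were mostly distal. Of the 4723 with start sites at hand, 313 (6.63%) touched a start window, 2143 (45.4%) lay elsewhere in a gene span, 1826 (38.7%) outside a span but within 100 kb, and 441 (9.34%) farther away. The start window share was 10.1% over all merged regions and 29.6% over regions open in all 10 lists, while it was 5.42% for the 1704 regions with peaks after injury at all times and none before it, and 2.7% for the 7793 regions with peaks at day 3 alone. The median distance to a start was 20445 bases, close to the 20332 bases of all merged regions. By start window share members resembled the other regions that open with injury more than the always open ones. The classes also differed in median width, at 1311 bases for members and 2759 bases for always open regions. It was 1750 bases for regions kept open after injury and 827 bases for those with peaks at day 3 alone. The part of width in the start window shares was not tested. They were spread over the genome, at 2.99% to 3.88% of the merged regions of each numbered chromosome and 1.76% of those on X, where 65 lay. Another member lay within 50 kb of 1863 members (38.2%). The same share was not taken for other regions, so it does not show whether members cluster.

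**Figure D2:**
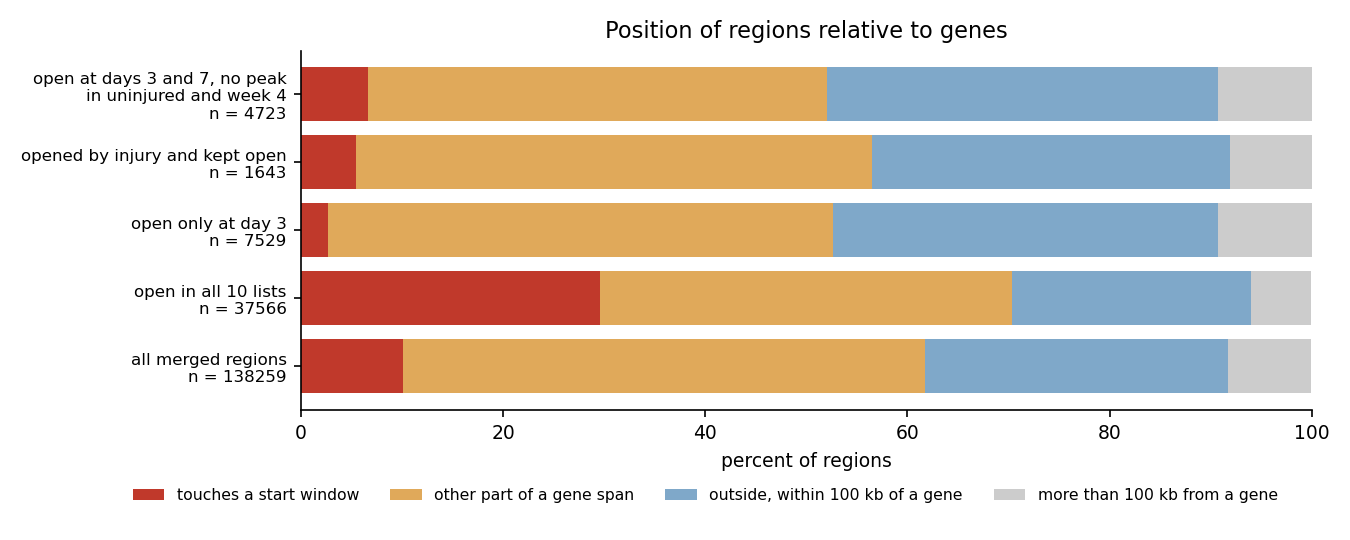
Stacked bars give the percent of regions in each class of position for members, for 3 other classes of merged regions and for all merged regions. Members touched a start window in 6.63% of cases, against 29.6% of the regions open in all 10 lists and 10.1% of all regions.

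RefSeq places 13 miRNA hairpins in or across members. Among them are Mir34a, a p53-induced miRNA, Mir138-2, Mir184, Mir196b of the Hox clusters, and the neighbours Mir369 and Mir410 of the imprinted cluster on chromosome 12. Mature miRNAs were not measured in these libraries.

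Week 2 was not used by the rule, and its lists show in how many members a peak was still called. A peak was present in 2317 members (47.5%) in week 2 replicate 1 and in 1769 (36.2%) in replicate 2, where all merged regions had one in 47.7% and 48.2%. Both week 2 lists held a peak in 1254 members (25.7%), replicate 1 alone in 1063, replicate 2 alone in 515 and neither in 2048 (42.0%). Among the other regions with all 4 day 3 and day 7 peaks, the 1993 with peaks in both week 4 lists and in neither uninjured list had week 2 peaks in 92.3% and 91.1%, and 2.11% had none. The 1317 with peaks in both uninjured lists and in neither week 4 list had week 2 peaks in 61.6% and 63.9%, and 19.2% had none. Members thus had the lowest week 2 shares of these 3 classes in both replicates, and the replicates were farther apart in members than in the other two classes. By definition the other classes also hold peaks in both uninjured or both week 4 lists, and members hold none there. The classes thus differ by choice in the number of lists with a peak. The part of peak calling in this order was not tested. Where present, the week 2 peaks of members stood at percentiles 26.3 and 22.5 of their lists, with median fold enrichments of 4.31 and 3.98.

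Members that were higher at day 7 more often had a week 2 peak. Members were split by day 7 percentile into a lowest, a middle and a highest part of 1685, 1569 and 1626 members. In the highest part (percentile 35.0 and up), 69.9% and 55.7% had a peak in week 2 replicates 1 and 2 and 20.4% had none. In the middle part the shares were 41.6%, 32.8% and 46.3%, and in the lowest part (up to percentile 16.2) 31.3%, 20.7% and 58.8%. Both replicates gave the same order. A low peak is called less readily than a high one, and the part of peak calling in this order was not tested.

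**Figure D3:**
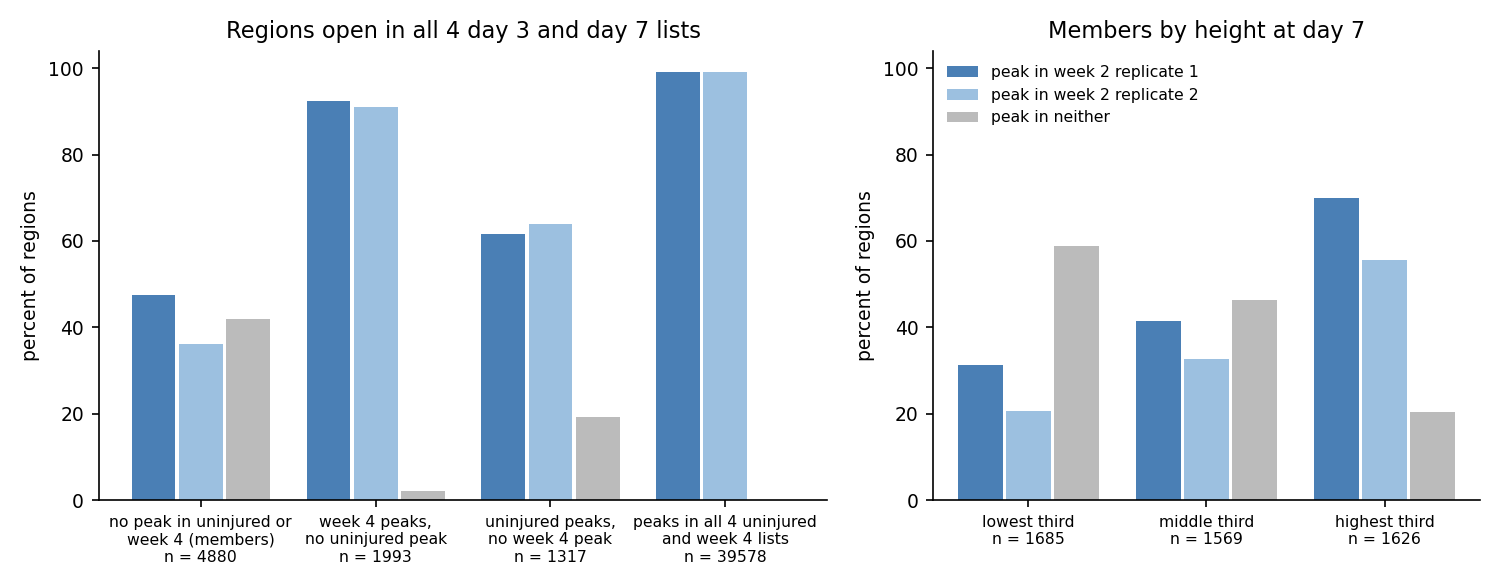
Percent of regions with a peak in week 2 replicate 1, in replicate 2 and in neither, left for 4 classes of regions that have peaks in all 4 day 3 and day 7 lists, right for members split by day 7 height into 3 parts. Members had week 2 peaks in 47.5% and 36.2% and none in 42.0%, and the share with none was 58.8% in the lowest and 20.4% in the highest part.

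Each member was linked to the nearest gene span of the count table within 100 kb, which gave 4413 linked members (90.4%) and 3282 genes. Most genes had 1 member (2509), 541 had 2, 164 had 3 and 68 had 4 or more. The 8 genes with most members were Gm20388, a predicted gene of long span that overlaps others (14), Ank3, Cacna1c and Glis3 (8 each), Gm38289, Cldn23 and Glis1 (7 each) and Babam2 (6), which tied with other genes of 6 members such as Mrtfb and Bach2 and was taken for its higher mean CPM. Cacna1c encodes the pore subunit of the L-type calcium channel, Ank3 a membrane scaffold of the ankyrin family and Glis3 a zinc-finger transcription factor. None of the 5 that were tested passed in RNA: Glis3 had 5.52 and 13.1 CPM at day 3 and 3.89 and 2.71 CPM at day 7, against 1.44 and 1.98 CPM in uninjured hearts and 1.79 and 1.85 CPM at week 4, a log2 fold change of 1.65 ± 0.80 (SE) with an edgeR adjusted p of 0.191. Its 4 day 3 and day 7 values were above the other 4. Gm38289 had no counts in any library, Cldn23 had 2 counts in the uninjured and week 4 libraries and none at days 3 and 7, and Glis1 reached 0.5 CPM at most, at week 2.

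Over all linked genes, RNA moved about as often as over the whole transcriptome. Of 3282 linked genes 2445 passed the filter on low counts. In the contrast of days 3 and 7 with uninjured and week 4, 241 linked genes (9.86%) were higher and 181 (7.4%) lower by edgeR's quasi-likelihood test at an adjusted p under 0.05. Of all 14968 genes tested 9.37% were higher and 6.55% lower, or 15.9% in either direction, against 17.3% of the linked genes. Their median log2 fold change was −0.026, against −0.055 over all genes. These shares are near the background and are no result about the members. Without week 4 replicate 1, 260 linked genes were called (156 higher and 104 lower), against 422 with all libraries.

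The single times are given in the same way. At day 3 against uninjured 7.28% of the linked genes were higher and 5.4% lower, where all genes were at 7.39% and 4.4% (11.8% in either direction). At day 7 against uninjured 6.26% were higher and 2.74% lower, where all genes were at 4.39% and 2.76% (7.15% in either direction). At week 4 against uninjured the linked genes were at 2.82% and 0.491%, and all genes at 1.85% and 0.474% (2.32% in either direction). Between times after MI few genes of either kind were called. At week 4 against day 7 the shares were 0.982% higher and 2.21% lower among linked genes, and 0.895% and 1.52% (2.42% in either direction) among all genes. At week 2 against day 7 they were 0.327% and 0.409% among linked genes, and 0.194% and 0.454% (0.648% in either direction) among all. At day 7 against day 3, 1.6% of the linked genes were higher and 0.532% lower, and 0.822% and 0.555% of all genes (1.38% in either direction). The contrasts share libraries and are not independent of each other.

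**Figure D4:**
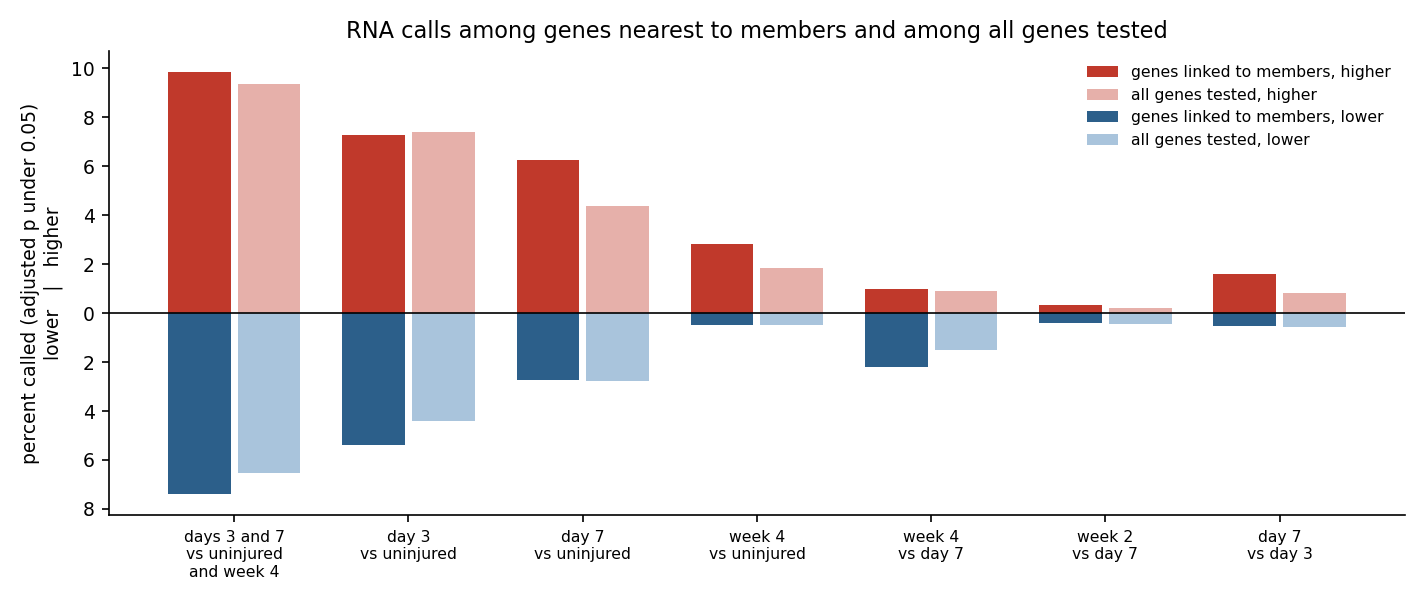
Percent of tested genes called higher (up) or lower (down) in 7 RNA contrasts, for the 2445 genes nearest to members (dark) and all 14968 genes tested (pale). In the contrast of days 3 and 7 with uninjured and week 4 the linked genes were at 9.86% and 7.4%, and all genes at 9.37% and 6.55%.

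The shares were also taken by the number, the place and the week 2 peaks of members. In the contrast of days 3 and 7 with uninjured and week 4, 9.37% of all genes tested were higher and 6.55% lower. Of the genes with 1 member 9.3% were higher and 7.26% lower, and of those with 2 members 11.4% and 8.41%. Of those with 3 members 12.6% were higher and 6.29% lower, and of those with 4 or more 8.93% and 7.14%. Genes nearest to a member outside gene spans were higher in 12.4% and lower in 8.53%, those nearest to a member inside a span in 8.09% and 6.88%. With no week 2 peak at the member, 10.4% were higher and 7.74% lower, and with peaks in both week 2 lists 10.9% and 6.28%. The differences between these shares were not tested.

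Most linked genes of the extracellular matrix rose. Of 13 collagens and matrix glycoproteins next to a member, 9 rose and none fell in the contrast of days 3 and 7 with uninjured and week 4 (median log2 fold change 1.65), and in the whole list 18 of 34 rose and 1 fell (median 1.19). Tenascin-C (Tnc), a matrix glycoprotein of injured tissue, had 5 members, more than any other gene of the list. Its RNA had 851 and 1227 CPM at day 3 and 247 and 265 CPM at day 7, against 7.14 and 1.55 CPM in uninjured hearts and 71.8 and 78.6 CPM at week 4, a log2 fold change of 4.83 ± 0.39 (SE; edgeR adjusted p = 8.27e-05). The 4 early values were all above the other 4, and week 4 was still above uninjured (4.11 ± 0.54, adjusted p = 0.00503, edgeR), although none of the 5 regions had a week 4 peak. The 5 regions lay up to 92297 bases from the gene span. The farthest was 13446 bases from the nearest RefSeq start, closer than the Tnc span, and whether the 5 act on Tnc was not tested. The one inside it (chr4:63998538-64015252) was the widest member, with fold enrichments of 7.92 and 7.14 at day 3, 4.03 and 3.72 at day 7 and 3.32 at week 2 in replicate 1 alone. A second, chr4:64092227-64093743, had 18.2 and 17.7 at day 3 and 5.37 and 3.97 at day 7.

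Periostin (Postn), a matricellular protein of activated fibroblasts, had 3 members, all 43241 to 80316 bases beyond the gene span on the same side. The farthest of these was 35330 bases from the nearest RefSeq start, closer than the Postn span. Whether the 3 regions act on Postn was not tested. Its RNA had 8279 and 7628 CPM at day 3 and 11770 and 12930 CPM at day 7, against 630 and 431 CPM in uninjured hearts and 3206 and 2685 CPM at week 4, with 6437 and 3333 CPM at week 2. Day 3 and day 7 lay above every uninjured and week 4 library (2.99 ± 0.23, edgeR adjusted p = 1.28e-05), and week 4 lay above uninjured (2.47 ± 0.32, adjusted p = 0.00213). The region with the highest peaks (chr3:54434278-54435553) had fold enrichments of 3.84 and 5.92 at day 3, 5.1 and 6.7 at day 7 and 6.97 at week 2 in replicate 1 alone. This region was higher at day 7 than the median member and did not have its taller peaks at day 3.

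Spp1, which encodes the secreted phosphoprotein osteopontin, had 1001 and 1690 CPM at day 3 and 579 and 670.1 CPM at day 7, against 33.6 and 22 CPM in uninjured hearts and 219.7 and 214 CPM at week 4 (log2 fold change 3.56 ± 0.22, edgeR adjusted p = 3.41e-06). Fbn2, a microfibril protein, had 34.2 and 40.7 CPM at day 3 and 58.2 and 76 CPM at day 7, against 4.26 and 2.36 CPM in uninjured hearts and 5.94 and 11.3 CPM at week 4 (3.23 ± 0.31, edgeR adjusted p = 5.87e-05). In both genes all early libraries were higher than all uninjured and week 4 libraries, but Fbn2 at week 2 (66 and 45.5 CPM) was still at the day 7 level. The collagens Col8a1 and Col3a1 also passed, at 1.56 ± 0.22 and 1.58 ± 0.27, but with overlap, as week 4 stayed high: Col8a1, a short-chain collagen, had 1574 and 1109 CPM at day 3 and 1655 and 3197 CPM at day 7, against 289 and 235 CPM in uninjured hearts and 1627 and 1212 CPM at week 4.

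Among genes that process and crosslink collagen, 2 of 5 linked genes tested rose and none fell (median log2 fold change 0.53), against 12 and 3 of 27 in the whole list. Adam12, a membrane metalloprotease made by activated stromal cells, had 65.5 and 72.3 CPM at day 3 and 28.8 and 27.6 CPM at day 7, against 1.97 and 1.55 CPM in uninjured hearts and 2.48 and 3.8 CPM at week 4, and 6.05 and 3.99 CPM at week 2. No early value overlapped a later or an uninjured one (4.22 ± 0.32, edgeR adjusted p = 1.28e-05), and week 4 was near uninjured (0.83 ± 0.42, adjusted p = 0.451). Its 2 regions had no peak at either of those times. P4ha2, a collagen prolyl hydroxylase, had 272 and 248 CPM at day 3 and 175 and 229 CPM at day 7, against 128 and 108 CPM in uninjured hearts and 67.2 and 124 CPM at week 4 (1.11 ± 0.21, edgeR adjusted p = 0.00303).

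All 4 linked genes of the contractile list rose (median log2 fold change 1.29), and 13 of 25 rose and none fell in the whole list. Smooth muscle actin (Acta2), the defining contractile protein of myofibroblasts, had 2 members 12067 and 14133 bases from its span and 972 and 1283 CPM at day 3 and 642 and 950.3 CPM at day 7, against 191 and 91.9 CPM in uninjured hearts and 302 and 469 CPM at week 4 (2.02 ± 0.32, edgeR adjusted p = 0.0022). Its early libraries were all above the uninjured and week 4 ones. Tropomyosin Tpm1, with 3 members, had 472 and 656 CPM at day 3 and 476 and 461 CPM at day 7, against 301 and 249 CPM in uninjured hearts and 277 and 292 CPM at week 4 (0.88 ± 0.16, edgeR adjusted p = 0.0028). The non-muscle myosin Myh9 and the actin crosslinker Actn1 passed at 1.55 ± 0.34 and 1.03 ± 0.20 but overlapped, and Actn1 was highest at week 4, with 214 and 180.5 CPM, against 35 and 23.4 CPM in uninjured hearts.

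The linked transcription factors did not share a direction: 3 of 21 rose and 6 fell (median log2 fold change −0.54), against 4 and 9 of 48 in the whole list. Tead1, a DNA-binding partner of YAP, had 51.3 and 66.9 CPM at day 3 and 59.8 and 43.2 CPM at day 7, against 23.7 and 24.4 CPM in uninjured hearts and 17.3 and 19.5 CPM at week 4 (1.39 ± 0.22, edgeR adjusted p = 0.00109), with the groups apart. Runx1, which drives blood cell and mesenchymal programmes, had 72.8 and 69.6 CPM at day 3 and 79 and 84.4 CPM at day 7, against 18.1 and 7.5 CPM in uninjured hearts and 82.4 and 96.7 CPM at week 4 and 114 and 142 CPM at week 2. It passed at 1.17 ± 0.24 (edgeR adjusted p = 0.00584), with the uninjured libraries low and the week 4 libraries at the level of day 7 (week 4 against day 7 0.13 ± 0.34, adjusted p = 0.892), where its 2 regions had no peak. Foxp1 was the third that rose.

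Of those that fell, Jun, an AP-1 subunit, had 796 and 538 CPM at day 3 and 1232 and 1292 CPM at day 7, against 2180 and 2735 CPM in uninjured hearts and 3033 and 4062 CPM at week 4 (−1.69 ± 0.24, edgeR adjusted p = 0.000751). Atf3 and Fos, of the same family, fell by 1.09 and 0.79 on the log2 scale. Its region had peaks at day 3 and day 7 and none at week 2, when Jun was at 2152 and 975 CPM, 1 value near the uninjured level and 1 below both day 7 values. Sox9, a cartilage and matrix regulator, had 208 and 142 CPM at day 3 and 296 and 258 CPM at day 7, against 403 and 523 CPM in uninjured hearts and 497 and 483 CPM at week 4 (−1.11 ± 0.17, edgeR adjusted p = 0.000874). Tcf21, the factor that marks the sorted lineage, had 10.7 and 7.82 CPM at day 3 and 12 and 9.53 CPM at day 7, against 23.1 and 31.6 CPM in uninjured hearts and 23.5 and 22.5 CPM at week 4 (−1.33 ± 0.38, edgeR adjusted p = 0.0321). The call for Tcf21 was lost without any 1 of the day 7 and week 4 libraries, day 3 replicate 2 or uninjured replicate 2, with log2 fold changes of −1.45 to −1.23 over all 10 omissions. Gata4, the sixth, was lower by 1.44 on the log2 scale in the pooled contrast, with overlapping groups. It had 13.9 and 9.92 CPM at day 3 and 30 and 20.1 CPM at day 7. Uninjured hearts had 22.3 and 35.7 CPM, and week 4 was highest, at 94.5 and 56.4 CPM. At day 7 against uninjured the log2 fold change of Gata4 was −0.21 ± 0.39 (edgeR adjusted p = 0.834).

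Of 47 cell cycle genes 6 were next to a member, and 4 of these 6 rose (median log2 fold change 2.47), against 33 in the whole list. Prc1, which bundles microtubules in the dividing cell's midzone, had 179.8 and 184 CPM at day 3 and 55.2 and 55.2 CPM at day 7, against 19.3 and 4.82 CPM in uninjured hearts and 6 and 10.4 CPM at week 4 (3.33 ± 0.44, edgeR adjusted p = 0.000858). Rrm1, a subunit of ribonucleotide reductase, had 327 and 352 CPM at day 3 and 97.5 and 101 CPM at day 7, against 61.4 and 54.2 CPM in uninjured hearts and 48.9 and 68.4 CPM at week 4 (1.66 ± 0.16, edgeR adjusted p = 6.64e-05). Cenpe, a kinetochore motor, and Cdk6 also passed, at 3.28 ± 0.36 and 0.91 ± 0.18. Day 3 was the highest time for Prc1, Rrm1 and Cenpe.

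**Figure D5:**
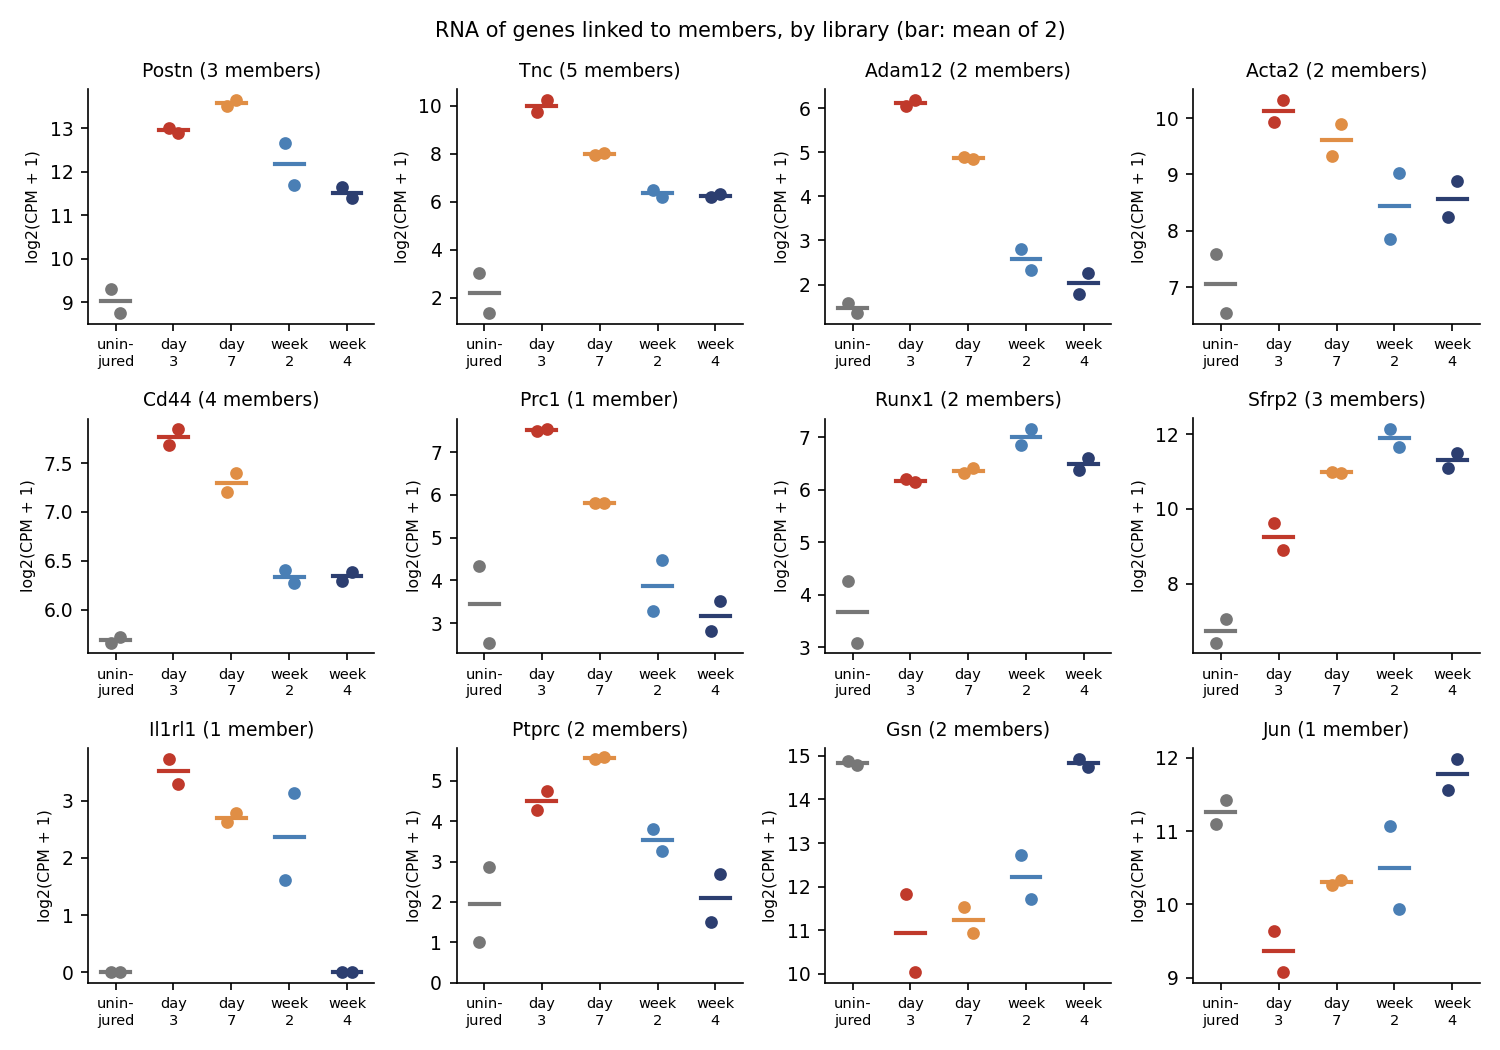
RNA of 12 linked genes in every library as log2(CPM + 1), with the axis of each panel fitted to its gene (points, libraries; bars, means of 2; time runs left to right). Postn, Tnc, Adam12, Acta2, Cd44, Prc1, Il1rl1 and Ptprc are higher at day 3 and day 7 than in all uninjured and week 4 libraries, Gsn and Jun are lower, and Runx1 and Sfrp2 stay high at week 4.

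Cytokines and their receptors had 11 linked genes tested, of which 5 rose and 1 fell (median log2 fold change 1.27), against 15 and 3 of 34 in the list. Il1rl1, which encodes ST2, the receptor of interleukin 33, had the largest fitted change of all named linked genes. It had 208 and 159 counts at day 3, 105 and 98 at day 7 and 37 and 138 at week 2, against 0 counts in each of the 4 uninjured and week 4 libraries (edgeR adjusted p = 0.000785). With 3 counts set as a floor for each of those libraries, the mean of 8.06 CPM at days 3 and 7 was at least 49.4-fold higher. Its member lay 24138 bases from the gene (chr1:40404063-40405432), with fold enrichments of 5.28 and 5.3 at day 3, 3.76 and 2.98 at day 7 and no week 2 peak, although the RNA was still present at week 2. Il33, which encodes that ligand, also had a member and rose by 0.76 on the log2 scale (edgeR adjusted p = 0.0099).

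Cxcl5, a neutrophil-attracting chemokine, had 319 and 214 CPM at day 3 and 46.3 and 114 CPM at day 7, against 4.21 and 26.9 CPM in uninjured hearts and 17.8 and 23.6 CPM at week 4 (3.03 ± 0.54, edgeR adjusted p = 0.0066). The call was lost without week 4 replicate 1 or without week 4 replicate 2, with log2 fold changes of 2.61 to 3.94 over all omissions. Day 3 was its highest time. Among the adhesion genes 4 of 22 linked genes rose and 2 fell (median log2 fold change 0.17), against 7 and 5 of 40. Cd44, the main hyaluronan receptor, had 4 members, 3 of them with no week 2 peak, and 205 and 229 CPM at day 3 and 147 and 167 CPM at day 7, against 49.7 and 51.6 CPM in uninjured hearts and 77.5 and 82.6 CPM at week 4 (1.53 ± 0.15, edgeR adjusted p = 6.5e-05). N-cadherin (Cdh2) had 78.6 and 78.3 CPM at day 3 and 129 and 74.1 CPM at day 7, against 12.6 and 6.92 CPM in uninjured hearts and 31.1 and 49 CPM at week 4 (2.18 ± 0.27, edgeR adjusted p = 0.000296). In both genes the early libraries stood above the rest.

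In the remaining signalling lists, falls were as many as rises or more. Of the linked growth factors and receptor kinases, 1 of 18 rose and 3 fell, of the Wnt genes 1 of 15 rose and 3 fell, and of the TGF-beta genes none of 11 rose and 2 fell, against 3 and 12 of 41, 2 and 6 of 33 and 2 and 6 of 37 in the whole lists. The medians of the linked genes were −0.21, −0.74 and −0.52 on the log2 scale. Several of these calls rest on few libraries. Nrg1, the growth factor that rose, lost its call without day 3 replicate 2, day 7 replicate 1 or either week 4 library (2.48 to 6.31 over all omissions). Of the Wnt genes that fell, Tcf7l2 lost its call without day 7 replicate 2 or any day 3, uninjured or week 4 library (−0.76 to −0.45), and Frzb without day 3 replicate 2, day 7 replicate 1 or any uninjured or week 4 library (−0.56 to −0.41). Frzb, a secreted Wnt antagonist, had 201 and 159.6 CPM at day 3 and 359 and 434 CPM at day 7, against 190.2 and 194 CPM in uninjured hearts and 760.3 and 669.7 CPM at week 4, and at day 7 against uninjured it was higher (1.05 ± 0.20, edgeR adjusted p = 0.00973). Tgfbr3, the TGF-beta co-receptor betaglycan, had 66.9 and 35.3 CPM at day 3 and 25 and 17.2 CPM at day 7, against 152 and 149 CPM in uninjured hearts and 109 and 77.8 CPM at week 4 (−1.85 ± 0.28, edgeR adjusted p = 0.00104), with all early values below the others. Fgfr1, a fibroblast growth factor receptor, had 82.5 and 70.5 CPM at day 3 and 83.4 and 81.6 CPM at day 7, against 126 and 95.1 CPM in uninjured hearts and 373 and 211 CPM at week 4 (−1.18 ± 0.20, edgeR adjusted p = 0.00165). Its week 4 values were the highest. The secreted Wnt modulator Sfrp2, with 3 members, had 793 and 472 CPM at day 3 and 2050 and 1998 CPM at day 7, against 84.4 and 132 CPM in uninjured hearts and 2186 and 2912 CPM at week 4 (1.11 ± 0.21, edgeR adjusted p = 0.00398). Its groups overlapped, and RNA at week 2 (4514 and 3214 CPM) and week 4 was at or above that at day 7.

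Genes of the resting fibroblast had 5 linked members tested, of which 2 fell and none rose (median log2 fold change −1.33), against 20 and 0 of 31 in the list. Gelsolin (Gsn), an actin-severing protein abundant in resting fibroblasts, had 3643 and 1053 CPM at day 3 and 2962 and 1971 CPM at day 7, against 30110 and 28490 CPM in uninjured hearts and 31270 and 27440 CPM at week 4 (−3.61 ± 0.40, edgeR adjusted p = 0.000367). The log2 fold change of week 4 against uninjured was near 0 (0.00 ± 0.51, adjusted p = 1). At week 2 Gsn was still low, at 6765 and 3364 CPM, while neither of its 2 regions had a peak in both week 2 lists and 1 had none. Among the cartilage and mature scar genes none of 6 rose and 2, Sox9 and Clu, fell in the pooled contrast (median log2 fold change −0.68), against 3 and 4 of 25. Clu, which encodes the chaperone clusterin, had 25.9 and 20.1 CPM at day 3 and 127 and 122 CPM at day 7, against 96.5 and 68.8 CPM in uninjured hearts and 110.3 and 100.4 CPM at week 4. It was low at day 3, and both day 7 values lay above all uninjured and week 4 values (0.59 ± 0.24 at day 7 against uninjured, edgeR adjusted p = 0.194).

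The largest changes among linked genes were taken from those with a mean log2 CPM of 2 or more, a call and groups that did not overlap, and the 10 with the largest rise and the 6 with the largest fall are given. Besides Il1rl1, the 10 included Cemip, a hyaluronan-degrading protein (6.23 and 9.48 CPM at day 3 and 17.4 and 20.9 CPM at day 7, against 0 and 0 CPM in uninjured hearts and 0.124 and 2.1 CPM at week 4), and the P-cadherin gene Cdh3 (27.7 and 41.6 CPM at day 3 and 37.4 and 28.4 CPM at day 7, against 0.48 and 0.0536 CPM in uninjured hearts and 3.34 and 0.0974 CPM at week 4). Their log2 fold changes were 7.12 ± 1.11 and 5.63 ± 0.94, with edgeR adjusted p of 0.00139 and 0.00311. In both genes the 2 week 4 libraries lay far apart. Adamts16, a secreted metalloprotease, Serpina3g, a serine protease inhibitor, Ptprn, a secretory granule protein, and Brip1, a DNA repair helicase, had log2 fold changes of 6.73 ± 1.50, 5.95 ± 0.86, 5.43 ± 0.79 and 5.37 ± 0.85. The call for Adamts16 was lost without day 3 replicate 2 or either uninjured library (log2 fold changes of 6.24 to 10.62 over all omissions), and that for Serpina3g without either uninjured library (5.36 to 8.22). The other 3 were the leukocyte genes Cyth4, Cd300lb and Trem2. Cemip, Adamts16 and Cyth4 were at 0 CPM in both uninjured libraries, so their fitted changes and ranks depend on the prior count. Their mean CPM at days 3 and 7 were 13.49, 13.15 and 21.56. Over the uninjured and week 4 libraries the means were 0.555, 0.792 and 2.71 CPM.

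The 6 that fell most were Alkal2, a ligand of the kinase ALK, Vipr2, a receptor of vasoactive intestinal peptide, the kinase Stk32b, Gsn, the chloride channel Ano1 and the secreted protein Ccdc3. Ccdc3 had 8.67 and 4.38 CPM at day 3 and 10.4 and 3.26 CPM at day 7, against 97.9 and 30.3 CPM in uninjured hearts and 70.2 and 47.9 CPM at week 4 (−3.20 ± 0.48, edgeR adjusted p = 0.00133). Alkal2 had 0.475 and 0 CPM at day 3 and 0 and 0 CPM at day 7, against 27.1 and 40.0 CPM in uninjured hearts and 0.557 and 0.974 CPM at week 4 (−6.97 ± 1.62, edgeR adjusted p = 0.0176). Its RNA was thus near 0 at week 4 as well, and its call was lost without day 3 replicate 2 or any day 7 or week 4 library (−9.55 to −6.48 over all omissions). The calls were also lost for Vipr2 (−6.51 ± 1.73) without any 1 of the uninjured, day 7 and week 4 libraries (−10.92 to −6.03), for Stk32b (−3.63 ± 0.90) without week 4 replicate 1 (−6.83 to −3.15) and for Ano1 (−3.40 ± 0.80) without uninjured replicate 1 (−5.64 to −2.92). Alkal2 and Vipr2 were at 0 CPM in both day 7 libraries, so their fitted changes and ranks depend on the prior count. Their mean CPM at days 3 and 7 were 0.119 and 1.53. Over the uninjured and week 4 libraries the means were 17.16 and 15.15 CPM.

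All 4 linked genes of the macrophage list rose (median log2 fold change 3.46), as did 18 of 20 in the whole list. Ptprc, the pan-leukocyte antigen CD45, had 2 members, both with peaks in both week 2 lists, and 18.2 and 26.1 CPM at day 3 and 45.8 and 46.9 CPM at day 7, against 1.01 and 6.33 CPM in uninjured hearts and 1.86 and 5.5 CPM at week 4 (3.12 ± 0.54, edgeR adjusted p = 0.00207). The region 15037 bases beyond its span (chr1:138190745-138193019) had fold enrichments of 19.4 and 24.7 at day 3, 7.51 and 9.19 at day 7 and 4.32 and 6.11 at week 2. The Fc receptor Fcgr3 had 31.1 and 51.6 CPM at day 3 and 98.6 and 116 CPM at day 7, against 4.32 and 2.73 CPM in uninjured hearts and 11 and 19 CPM at week 4 (3.19 ± 0.28, edgeR adjusted p = 3.42e-05). In both genes the early libraries were above the others, with the higher values at day 7.

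Spi1, which encodes PU.1, and the lysosomal protein gene Laptm5 rose by 3.73 ± 0.88 and 4.76 ± 0.66 on the log2 scale, and the Spi1 call was lost without week 4 replicate 1 (3.18 to 6.8 over all omissions). Trem2, a lipid-sensing receptor of macrophages with 2 members and no week 2 peak, had 15 and 29.2 CPM at day 3 and 38.2 and 53.5 CPM at day 7, against 0.373 and 0 CPM in uninjured hearts and 1.05 and 3.26 CPM at week 4 (5.61 ± 0.70, edgeR adjusted p = 0.00036). Cyth4, a leukocyte member of the cytohesin family, had 7.36 and 17.8 CPM at day 3 and 29.4 and 31.7 CPM at day 7, against 0 and 0 CPM in uninjured hearts and 4.39 and 6.43 CPM at week 4 (6.67 ± 0.76, edgeR adjusted p = 0.000254). Cd300lb, an activating receptor of myeloid cells, had 11.3 and 11 CPM at day 3 and 12.7 and 11.1 CPM at day 7, against 0 and 0.482 CPM in uninjured hearts and 0 and 0.0974 CPM at week 4 (6.57 ± 1.10, edgeR adjusted p = 0.00169).

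Summed over the 20 markers of the list, macrophage RNA was at 793.4 and 1319 CPM at day 3, 2094 and 3645 CPM at day 7 and 605.4 and 685.9 CPM at week 2, against 83.9 and 95.9 CPM in the uninjured libraries and 200.1 and 303.8 CPM at week 4. No gene of the list was at 0 in all libraries. The markers were thus highest at the times that the rule sets for member peaks, in libraries of sorted eGFP-positive cells. They were higher at day 7 than at day 3 and at week 4 still above the uninjured libraries. Member peaks ranked higher at day 3 in 52.5% of members and at day 7 in 8.14%. The part of these markers in the peaks and in the RNA of linked genes was not tested. In bulk samples fewer cells of a type and less RNA per cell cannot be told apart. Endothelial markers summed to 341.6 to 457.9 CPM at day 3 and 1135 to 1508 CPM at day 7, against 788.0 to 884.6 CPM in uninjured libraries and 886.2 to 889.2 CPM at week 4. Of their 6 linked genes, 2 (Kdr and Flt1) were lower and none higher in the pooled contrast of days 3 and 7 with uninjured and week 4 (median log2 fold change −0.61), and in both day 3 alone was low. Kdr had 7.24 and 1.89 CPM at day 3 and 28.3 and 47.1 CPM at day 7, against 37.1 and 26.1 CPM in uninjured hearts and 43 and 61.2 CPM at week 4, and Flt1 had 6.47 and 1.94 CPM at day 3 and 36.8 and 31 CPM at day 7, against 30.4 and 24 CPM in uninjured hearts and 22.4 and 28.8 CPM at week 4. At day 7 against uninjured their log2 fold changes were 0.25 ± 0.53 and 0.32 ± 0.47 (edgeR adjusted p = 0.857 and 0.781). The Flt1 call was lost without any 1 of the day 7 and week 4 libraries, day 3 replicate 2 or uninjured replicate 1 (−1.71 to −0.85 over all omissions). Of the 3 linked pericyte genes and the 3 linked cardiomyocyte genes none was called, and the 1 linked lymphocyte gene was not tested. Lymphocyte and neutrophil markers, of which 4 of 12 passed the filter, summed to 22.9 CPM at most.

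Genes whose own start window was touched by a member formed a smaller set, examined after the other values were seen. Members touched the start windows of 332 gene symbols, of which 209 were in the count table and 103 passed the filter on low counts. In the contrast of days 3 and 7 with uninjured and week 4, 14 of the 103 were higher (13.6%) and 4 lower (3.88%), with a median log2 fold change of 1.07, where 9.89% and 6.9% of the 11016 tested genes with any start window were called and the median was −0.03. At week 4 against day 7 none was higher and 6 were lower (5.83%), against 0.895% higher and 1.52% lower of all 14968 genes tested. The median was −1.33, against 0.0 over all genes tested. At week 4 against uninjured 1 was higher (0.971%) and none lower, against 1.85% and 0.474% of all genes tested. A gene silent outside days 3 and 7 passes the filter through those libraries alone, so the 103 are not all genes with such a start and their median has no test.

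The 14 that were higher in the pooled contrast are Fgd2, Scel, Cyth4, Serpina3g, Ptprn, Laptm5, Clca3a1, C5ar1, Lcp1, Ptafr, Raet1e, Il2rg, Nrros and H2-Aa. C5ar1 is the receptor of complement C5a, Ptafr that of platelet-activating factor, Il2rg the common chain of interleukin receptors, Lcp1 an actin bundler of leukocytes and H2-Aa an MHC class II chain. Raet1e was high at day 3 alone, with 29.4 and 35.7 CPM. It had 5.17 and 1.57 CPM at day 7, against 4.74 and 0.804 CPM in uninjured hearts. Its log2 fold change at day 7 against uninjured was 0.28 ± 0.93 (edgeR adjusted p = 0.918). H2-Aa overlapped between groups, with 14.25 and 43.35 CPM at day 3 and 34.53 and 24.8 CPM at week 4. Besides that for Serpina3g, calls were lost for Clca3a1 without either week 4 library (4.09 to 8.28 over all omissions), for Ptafr without day 7 replicate 2 or uninjured replicate 1 (2.55 to 4.02) and for Raet1e without day 3 replicate 2, day 7 replicate 1, uninjured replicate 2 or either week 4 library (2.09 to 3.54). Fgd2, an exchange factor for Cdc42, had 0 and 169 counts at day 3, 87 and 136 at day 7 and 17 and 54 at week 2, against 0 and 0 counts in the uninjured and 1 and 0 counts in the week 4 libraries. Its call was lost without day 3 replicate 2 or week 4 replicate 2 (3.72 to 9.63 over all omissions), and the ratio of counts was 405 with a 95% counting interval (exact binomial) of 72.2 to 1.6e+04, which covers counting error only. The region at its start (chr17:29360479-29363242), whose start sequence is among those shown, had fold enrichments of 2.88 and 3.88 at day 3 and 5.37 and 3.72 at day 7 and no week 2 peak.

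Scel, which encodes the epithelial envelope protein sciellin, had 14 and 85 counts at day 3, 79 and 227 at day 7 and 12 and 196 at week 2, against 0 and 1 counts in each of the uninjured and week 4 pairs of libraries, a ratio of 209 with a counting interval of 57.5 to 1.73e+03. The region at its start, with the AP-1 letters in capitals, had fold enrichments of 7.44 and 7.55 at day 3, 6.98 and 4.97 at day 7 and 5.31 and 4.25 at week 2. Its RNA and its peaks were thus both still present at week 2. Lcp1 had 79.1 and 116 CPM at day 3 and 142 and 193 CPM at day 7, against 4.32 and 3.81 CPM in uninjured hearts and 6.56 and 32.6 CPM at week 4 (3.84 ± 0.44, edgeR adjusted p = 0.000391). The region at its start had fold enrichments of 10.6 and 11.8 at day 3 and 5.64 and 5.21 at day 7. C5ar1 had 10.4 and 17.6 CPM at day 3 and 25.1 and 35.9 CPM at day 7, against 0.586 and 1.88 CPM in uninjured hearts and 0.681 and 2.29 CPM at week 4 (3.92 ± 0.58, edgeR adjusted p = 0.000847) beside low peaks, of 2.64 and 3.67 at day 3 and 3.49 and 4.22 at day 7. Il2rg had 34.7 and 31.3 CPM at day 3 and 63.5 and 100.5 CPM at day 7, against 11.3 and 7.93 CPM in uninjured hearts and 12.7 and 12.5 CPM at week 4 (2.24 ± 0.27, edgeR adjusted p = 0.00026). In Lcp1, C5ar1 and Il2rg no early library overlapped the uninjured and week 4 ones.

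In the pooled contrast 4 were lower, namely Rbm24, an RNA-binding protein of muscle, the aquaglyceroporin Aqp7, the actin-associated Sorbs2 and the nuclear envelope protein Sun1. Their log2 fold changes were −7.94 ± 2.38, −2.21 ± 0.60, −1.44 ± 0.39 and −0.96 ± 0.27. For Sorbs2 and Sun1 the start is an internal one. Their windows begin at 45627501 and 139214908, inside plus-strand gene spans that begin at 45507788 and 139200637. RNA was counted per gene and not per start. None of the 4 calls held with every library left out in turn. The Rbm24 call was lost without any 1 of the 8 libraries compared (−8.36 to −6.88), where it had 0 CPM in all 4 day 3 and day 7 libraries, against 3.73 and 0.482 CPM in uninjured hearts and 1.49 and 1.22 CPM at week 4. A fitted change against libraries at 0 depends on the prior count, and with a floor of 3 counts in each day 3 and day 7 library Rbm24 was at least 10.3-fold lower there. Over all omissions the log2 fold changes were −3.27 to −1.8 for Aqp7, whose call was lost without day 3 replicate 2, uninjured replicate 1, week 4 replicate 2 or either day 7 library. They were −1.77 to −1.02 for Sorbs2 (lost without day 3 replicate 1, day 7 replicate 1, uninjured replicate 1 or either week 4 library) and −1.16 to −0.82 for Sun1 (lost without day 3 replicate 2, week 4 replicate 1 or any day 7 or uninjured library). In Aqp7 and Sorbs2 the low values were those of day 3. Aqp7 had 0.475 and 0.0554 CPM at day 3 and 8.12 and 9.95 CPM at day 7, against 13.1 and 9.17 CPM in uninjured hearts and 3.84 and 5.5 CPM at week 4, and Sorbs2 had 1.96 and 3.21 CPM at day 3 and 22.1 and 46 CPM at day 7, against 26.2 and 10.1 CPM in uninjured hearts and 34.1 and 37.7 CPM at week 4. At day 7 against uninjured their log2 fold changes were −0.30 ± 0.78 and 0.91 ± 0.53 (edgeR adjusted p = 0.892 and 0.368).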

How the data were processed

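The authors deposited an ATAC-seq peak list of each library, in narrowPeak form, and a table of expected counts per gene. In the column order of that format, each deposited peak has a score, a fold enrichment (ratio), −log10 p, −log10 q and a summit offset. The submitters' processing notes name Trim Galore 0.6, FastQC and STAR 2.5.3a, and also DESeq2, Bowtie2 2.3 and MACS2. They name the builds mm10 and GRCm38 and give no role for any of these. The peak threshold, the program behind the expected counts and the strand were not given in the sources used here. Reads of antisense and overlapping genes therefore cannot be told apart.

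Peaks that shared 1 base were merged, and regions were linked to the nearest gene span within 100 kb. Expected counts were rounded and fitted in R 4.3.3 with edgeR 4.0.16 (TMM, filterByExpr, robust quasi-likelihood). The 10 libraries were fitted together by group, which leaves 5 residual degrees of freedom, and p-values were adjusted by Benjamini-Hochberg over 14968 genes. The fit was tested on simulated data. CPM use TMM library sizes, and SE come from the fit. Intervals and floors of 3 counts cover counting error only, since PCR reads without molecular identifiers are not independent molecules. Alternatives were DESeq2 1.42.0, its size factors, no filter on low counts, a replicate block, other links and overlaps, and each library left out.

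Named genes were linked genes of 4 kinds. The first were the 10 and 6 with the largest rise and fall among those that passed, had a mean log2 CPM of 2 or more, did not overlap between groups and were not predicted, ribosomal or mitochondrial. To these were added the 8 with most members, up to 4 called genes per list, and those linked of Runx1, Postn, Tnc, Cthrc1, Lox, Fosl1, Acta2, Col1a1, Col8a1, Tgfb3, Inhba, Spp1, Ptprc and Csf1r. Named regions were the 6 members highest by their lowest within-list percentile of fold enrichment, and the highest member of up to 6 named genes. The members, the gene lists and this rule were chosen with earlier results of these data known. The start window genes and motifs were added after the data were seen, with sequences from RefSeq (GRCm38.p6). Figures were drawn with matplotlib 3.10.9.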

Additional observations from a re-analysis of the deposited data

Results flagged for a closer look

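In 10 of the 79 named linked genes tested the change at day 7 against uninjured differed from that at day 3 against uninjured. This is by edgeR's quasi-likelihood test of day 7 against day 3, which called 1.38% of all genes tested and 2.13% of the linked genes. Most named genes were chosen for a call in the pooled contrast, which uses the same libraries, so the 10 are no result about the members. Both changes share the uninjured libraries, and the test uses them only for its estimate of the spread. At day 7 the division genes Cenpe (log2 fold change −2.26, adjusted p = 0.0432) and Rrm1 (−1.77, adjusted p = 0.00635) were lower than at day 3. Receptors of vascular endothelial growth factor were higher, Kdr by 3.05 (adjusted p = 0.0267) and Flt1 by 3.01 (adjusted p = 0.0171). The endothelial markers summed to 1135 and 1508 CPM at day 7 and 341.6 and 457.9 CPM at day 3, and their part in these 2 values was not tested. The Wnt modulators Sfrp2 (1.68, adjusted p = 0.0213) and Frzb (1.14, adjusted p = 0.0194), the chaperone clusterin, Clu (2.44, adjusted p = 0.0043), the aquaglyceroporin Aqp7 (5.07, adjusted p = 0.0271), the MHC class II gene H2-Aa (2.36, adjusted p = 0.0469) and Sorbs2 (3.71, adjusted p = 0.0135) were higher too, each by edgeR. The summed macrophage markers were 2094 and 3645 CPM at day 7 and 793.4 and 1319 CPM at day 3, and their part in the H2-Aa value was not tested. Genes called between these times were few once day 7 replicate 2 or day 3 replicate 2 was left out, with 5 and 6 of the linked genes against 52.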

How the results depend on the processing

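The 4880 members became 3722 with peaks at −log10 q of 5 or more, 3435 where a peak had to cover 50% of the region, 4886 with 100 bases of overlap, 2048 where week 2 also had to be without a peak, and 5197 to 8175 without each of the 8 lists in turn. Members with a peak in at least 1 week 2 list were 2832, or 2407 at −log10 q of 5 and 1834 at 50% coverage. Linked genes called (days 3 and 7 against uninjured and week 4) were 422, 598 by DESeq2 and 339 to 466 under the other planned settings, and 220 for members with no week 2 peak, a choice made after seeing the data. By DESeq2 the counts were 494 (310 by edgeR) for day 3 and 390 (220) for day 7 against uninjured, 181 (81) for week 4 against uninjured, 243 (78) for week 4 against day 7, 179 (18) for week 2 against day 7 and 188 (52) for day 7 against day 3. With no filter on low counts they were 120, 60 and 79 for the last 3. Without each library in turn the counts ranged, in the same order of contrasts, over 260 to 479, 138 to 362, 86 to 262, 28 to 106, 10 to 112, 1 to 57 and 5 to 86. The lowest were found without week 4 replicate 1 (first contrast), day 3 replicate 2 (day 3), uninjured replicate 2 (week 4 against uninjured), week 4 replicate 1 or day 7 replicate 2 (week 4 against day 7) and day 7 replicate 2 (the other 3). Counts also moved by over 1.5 times without uninjured replicate 1 (195 at day 3, 40 for week 2 against day 7), uninjured replicate 2 (149 at day 3, 90 at day 7, 41 for week 2 against day 7), week 4 replicate 1 (50 for week 4 against uninjured), week 4 replicate 2 (42 there, 34 against day 7), week 2 replicates 1 and 2 (45 and 5 for week 2), day 3 replicate 1 (28 for week 2 and 86 for day 7 against day 3), day 3 replicate 2 (6 for day 7 against day 3) and day 7 replicate 1 (57 for week 2), and the members did without day 7 replicate 2 (8175).

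The replicate numbers did not pair the libraries: deviations from the group means correlated at −0.0181 to 0.0288 over 10 pairs of groups. With a replicate block the counts were 442, 312, 233, 81, 89, 21 and 45 in that order. Of 74 named genes that passed, 50 did so with each library left out. Over all settings 1003 gene values kept direction and side of the threshold, 100 lost the call and 2 gained it, and Ank3, not called, changed sign without week 4 replicate 1 (−0.03 to 0.82 over all omissions). Motifs around peak summits were not run, for lack of a genome of the build, and neither were their 2 alternatives.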
